A study of Mus musculus with 6 samples.

Results

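The 55 genes described here copy DNA and run S phase in mouse cells. They were chosen as a list of symbols, from origin licensing factors through polymerases to the E2F transcription factors, with no measured value in the rule, though earlier results of these data were known when the list was made. All 55 were present among the 30055 gene symbols of the deposited count table, and all 55 passed the filter on low counts that left 15035 genes for testing. Their RNA was measured in cultured lung endothelial cells, the cells that line blood vessels.

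All cells came from 3-week-old female C57BL6 mice that lack Ch25h, the gene for cholesterol 25-hydroxylase, so every group shares this deletion. One group received vehicle alone. A second, called TEV here, received extracellular vesicles, the membrane particles that tumour cells shed, from MC38 mouse colon carcinoma cells at 20 µg/ml for 12 h. The third, TEV plus reserpine, had the same vesicle treatment after 8 h with 10 µM reserpine, a drug known to block vesicular monoamine transporters. Each group had 2 libraries of polyA RNA, and no library of cells given reserpine alone was analysed here. The sources do not say whether the 2 libraries of a group came from separate cultures or animals, so p-values measure only the spread between these libraries, which may be technical.

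Totals ran from 22270657 to 81225627 estimated counts per library. Ch25h itself stood between 0.317 and 1.06 CPM (estimated counts scaled to a common library total) in the 6 libraries, and no library of cells that keep the gene was analysed here. The endothelial label was checked on 12 endothelial markers, all of which were detected: Cdh5, the cadherin of endothelial junctions, averaged between 1749 and 2821 CPM in the 3 groups. Fibroblast and mural cell markers differed strongly between the groups. The 9 fibroblast markers tested summed to 2917 and 3357 CPM in the vehicle libraries, 337 and 391 in the TEV libraries and 441 and 492 in the TEV plus reserpine libraries. The 9 pericyte and smooth muscle markers summed to 1999 and 2022 CPM in vehicle, 782 and 891 in TEV and 850 and 931 in TEV plus reserpine. Tcf21 and Cspg4, a marker from each list, were listed at 0 in all 4 vesicle-treated libraries. In bulk RNA, fewer cells of a type and less RNA per cell cannot be told apart.

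Before S phase, origins are licensed when the origin recognition complex, Cdc6 and Cdt1 load the MCM2-7 helicase onto DNA. Cdc45 and the GINS complex then turn MCM2-7 into the active helicase, and polymerase alpha-primase, delta and epsilon copy the strands behind it, held by the PCNA clamp. Many of these genes are periodic, and E2F factors at their promoters are known to switch them on at the border of G1 and S phase.

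The promoter sequences below show where the letters of an E2F site lie in genes of different roles. RefSeq promoters (GRCm38.p6, 250 bases before to 50 after the start) were found for 46 of the 55 genes, some with several starts. For 47 of the 55 promoters of these genes, bases 21 to 50 after the start stood in a GENCODE transcript of the gene. The letters searched, on both strands, were TTTGGCGC, TTTGCCGC, TTTCGCGC and TTTCCCGC. Overlapping matches were counted separately. Of each role group, the gene shown is the one with the largest rise after vesicles among those that rose and have a match wholly before the start, and 6 groups had one. The capitals mark the match, and 20 bases on each side are in lower case.
Cdc6: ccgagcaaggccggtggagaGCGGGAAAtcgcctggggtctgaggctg
Mcm5: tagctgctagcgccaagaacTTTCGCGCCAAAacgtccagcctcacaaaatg
Gins3: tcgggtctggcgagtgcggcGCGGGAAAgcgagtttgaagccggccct
Pola1: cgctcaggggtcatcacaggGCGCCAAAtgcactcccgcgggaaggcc
Dnmt1: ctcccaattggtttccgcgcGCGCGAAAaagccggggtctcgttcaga
E2f7: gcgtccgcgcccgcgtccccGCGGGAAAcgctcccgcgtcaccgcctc

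Each sequence reads 5′ to 3′ on the strand of its gene. The Cdc6 window is chr11:98907993-98908040 on the plus strand, and its bases lie 158 to 111 before the start. The Mcm5 window, chr8:75109336-75109387 on the plus strand, holds 2 overlapping matches, one on each strand. The Gins3 window is chr8:95633498-95633545 on the plus strand and is the closest to its start, from 61 to 14 bases before it. The Pola1 window is chrX:93632266-93632313 and the Dnmt1 window is chr9:20952815-20952862, both on the minus strand. The E2f7 window is chr10:110745221-110745268 on the plus strand.

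At least 1 E2F match stood in the promoters of 19 of the 46 genes, or 41.3%. By promoter rather than by gene the share was 34.5% (19 of 55), against 2.26% of all 32851 promoters and 3.55% of the 13790 promoters of genes tested here. There were 26 matches, 14 before the start and 12 after it. Mcm6 had 3, the largest number in any of these genes. CCAAT, the letters of an NF-Y site, searched in the same way, stood in 60% of these promoters, 37.4% of all and 37.3% of those of genes tested. TTTGAA, the letters of a cell cycle homology region, stood in 14.5% of these promoters, 17.9% of all and 12.3% of those of genes tested. A match is a description of letters and not of binding, and no match says only that these letters are not in the window.

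**Figure D1:**
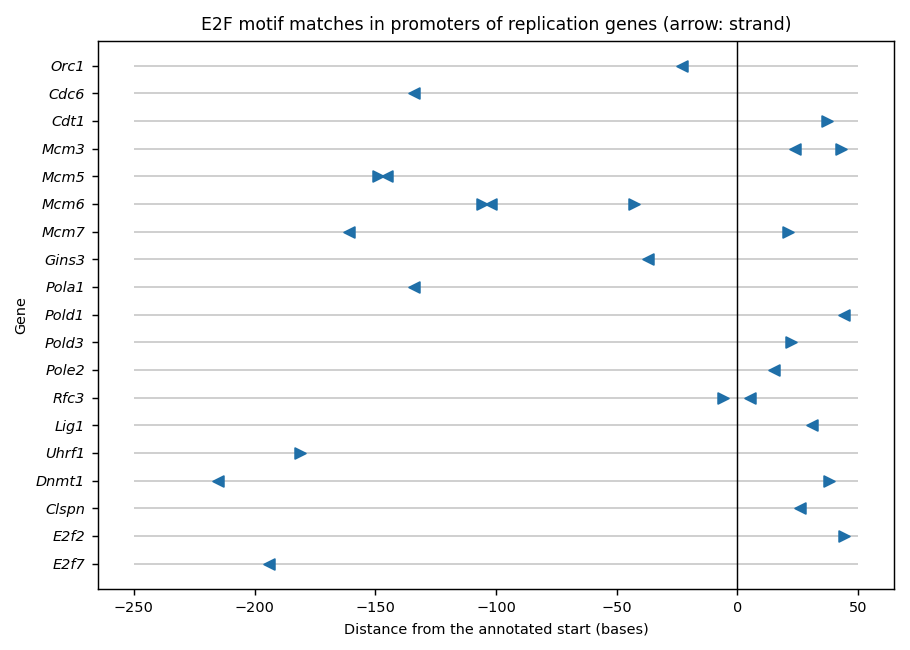
Positions of the 26 E2F matches (arrowheads, pointing along the strand of the match) in the promoters of the 19 genes that hold one, by distance in bases from the annotated start. Matches fall on both sides of the start, and Mcm6 holds 3.

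With tumour vesicles, most of the replication genes were higher. Against vehicle, 45 of the 55 rose and none fell. Over all 15035 genes tested, 25.1% were called higher and 24.6% lower. A gene is called when its adjusted p is under 0.05 in edgeR's quasi-likelihood test with Benjamini-Hochberg adjustment, and "rose" and "fell" are kept for called genes. The median log2 change of the 55 was 1.06, beside 0.01 for all genes tested, with a range from -0.22 to 1.92. Of the called genes, 31 were at least 2-fold higher. In each of the 3 comparisons made here 0 of the 55 were lower at an unadjusted p under 0.05, in edgeR, DESeq2 and limma-voom alike. Both TEV libraries lay above both vehicle libraries for 51 of the 55 genes, against 39.9% of all genes tested, and both lay below for Pold2 and Pold3, against 39% of all genes tested. Dut and E2f2 were the 2 genes whose groups overlapped.

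Summed over the 55 genes, RNA stood at 1353 and 1320 CPM in the vehicle libraries, 2516 and 2793 in the TEV libraries and 3046 and 3007 in the TEV plus reserpine libraries. TEV replicate 2 was above TEV replicate 1, while the vehicle libraries and the TEV plus reserpine libraries each lay close together. Without TEV replicate 2 the count of genes that rose was 38, the lowest over the 6 libraries left out in turn.

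The cell type markers moved in the same comparison. Of the 12 endothelial markers 9 rose and 3 fell, and their sum went from 5087 and 5042 CPM in vehicle to 10457 and 10312 in TEV, a ratio of means of 2.05. For the 55 replication genes the same ratio was 1.99. By gene, the median log2 change was 0.56 for the 12 endothelial markers and 1.06 for the 55 replication genes. The replication sum divided by the endothelial sum was 0.266 and 0.262 in the vehicle libraries and 0.241 and 0.271 in the TEV libraries, so on this scale the groups overlapped. Endothelial markers did not move together: Emcn, a vascular sialomucin, rose by 2.84 (log2) while Cldn5, a tight junction protein, changed by -2.93. Of 5 lymphatic endothelial markers 0 rose and 3 fell, with sums of 1264 and 1252 CPM in vehicle and 1054 and 1087 in TEV. Of the 9 fibroblast markers 8 fell and 1 rose, by 1.71 (log2), and all 9 pericyte and smooth muscle markers fell. Of 7 macrophage and leukocyte markers tested 1 rose and 3 fell, with sums of 48.4 and 61.9 CPM in vehicle and 22.6 and 22.01 in TEV. Of 7 epithelial and colon tumour markers tested 2 rose and 3 fell, with sums of 18.7 and 20.0 CPM in vehicle and 59.9 and 63.1 in TEV, and Epcam did not pass the filter. When all libraries were scaled to the same geometric mean of the 12 endothelial markers, a setting chosen after seeing the data, 35 of the 55 genes rose and 3 fell, with a median of 0.67, beside -0.37 for all genes tested. The part of the fibroblast, mural, lymphatic, leukocyte and epithelial marker shifts in the change of the replication genes was not tested.

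**Figure D2:**
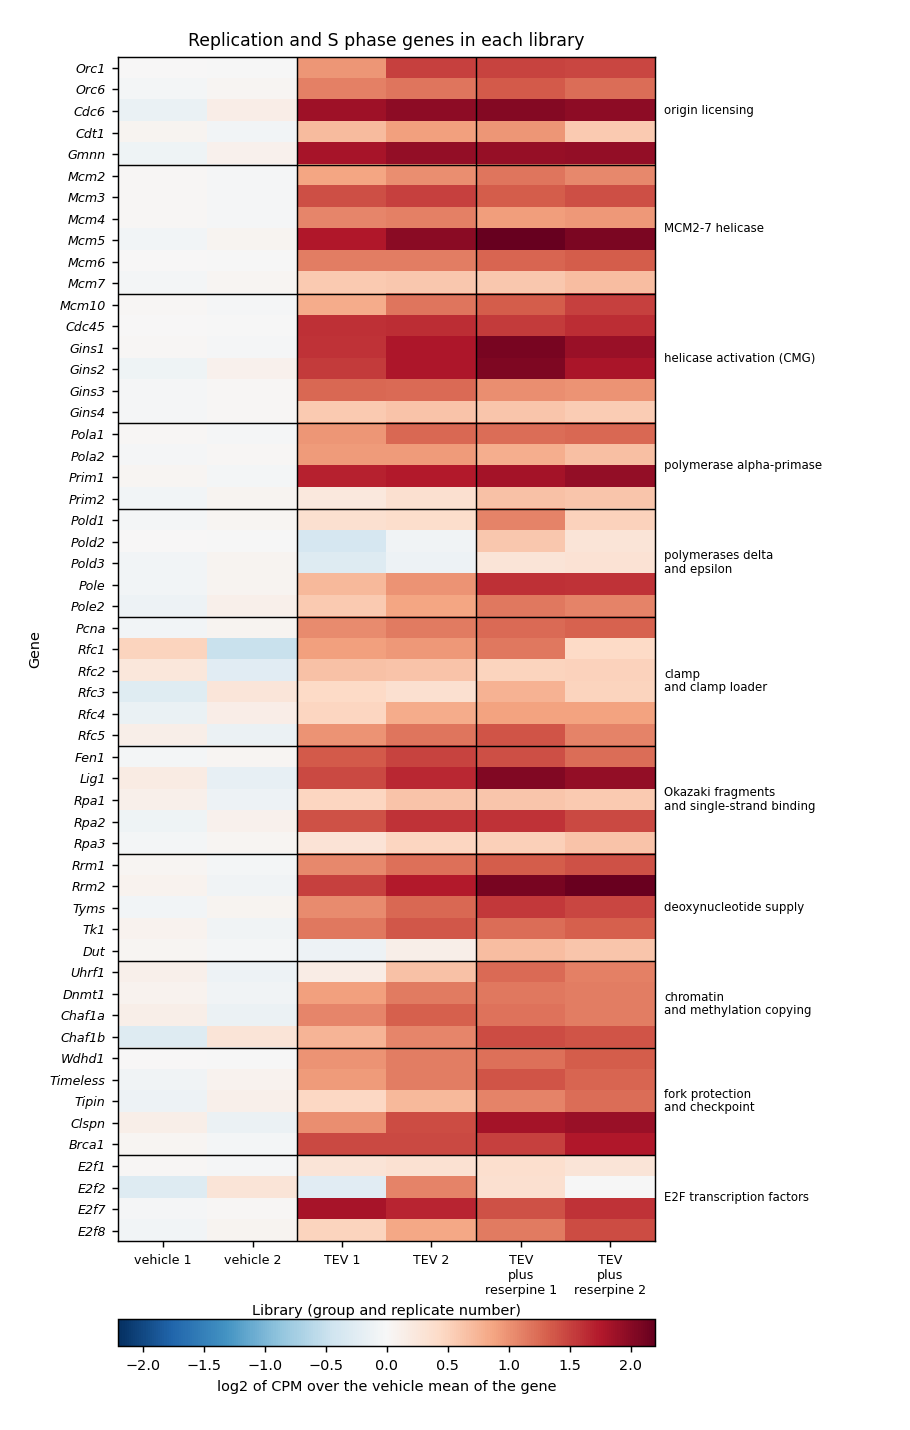
Each of the 55 genes (rows, in role groups) in each of the 6 libraries (columns), coloured by log2 of its CPM over the gene's vehicle mean. The TEV and TEV plus reserpine columns are red for most genes, with medians between 0.97 and 1.24, and Pold2, Pold3 and Dut stay pale in the TEV columns.

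The 5 licensing genes all rose with vesicles, with a median log2 change of 1.27. Cdc6, the ATPase that helps load the helicase, had 6.90 and 8.43 CPM in vehicle, 27.7 and 30.0 in TEV and 30.7 and 29.7 in TEV plus reserpine. The vehicle libraries were low and the 4 vesicle-treated libraries high, and the last 2 groups overlapped. Its log2 change in TEV against vehicle was 1.92 (SE 0.13, edgeR quasi-likelihood adjusted p = 7.62e-05), the largest of the 55. Gmnn, which encodes geminin, the inhibitor of Cdt1, had 5.02 and 5.75 CPM in vehicle, 18.8 and 20.4 in TEV and 20.2 and 20.5 in TEV plus reserpine. It rose by 1.87 (SE 0.13, edgeR adjusted p = 8.53e-05). Cdt1 itself changed less, from 16.4 and 15.1 CPM to 25.6 and 29.6 (log2 change 0.81, SE 0.16, edgeR adjusted p = 0.00583). Orc1 and Orc6, origin recognition subunits, rose by 1.27 and 1.14.

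All 6 subunits of the MCM2-7 helicase rose with vesicles, but by unequal amounts. Mcm3 had 43.5 and 42.0 CPM in vehicle, 115 and 121 in TEV and 107 and 114 in TEV plus reserpine. Its vehicle libraries were far below the other 4, and the TEV libraries were the highest. The log2 change in TEV against vehicle was 1.46 (SE 0.08, edgeR quasi-likelihood adjusted p = 3.51e-05), the smallest adjusted p of the 55. Mcm6 had 63.1 CPM in both vehicle libraries, 137 and 138 in TEV and 154 and 159.7 in TEV plus reserpine (log2 change 1.13 in TEV against vehicle). Mcm4 and Mcm2 rose by 1.09 and 0.95. Mcm7 rose least, by 0.58 (SE 0.08, edgeR adjusted p = 0.0012), from 65.8 and 69.3 CPM to 100.4 and 102. Mcm5 had the largest change of the 6, 1.89 (SE 0.22, edgeR adjusted p = 0.00064), at low levels: 1.21 and 1.32 CPM in vehicle, 4.30 and 5.03 in TEV and 5.76 and 5.28 in TEV plus reserpine.

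The 6 genes that turn the loaded helicase on also all rose, with a median of 1.43. Cdc45, the partner of MCM2-7 and GINS in the active helicase, had 10.3 and 10.1 CPM in vehicle, 30.9 and 31.2 in TEV and 29.4 and 31.4 in TEV plus reserpine. The replicates were close and the vehicle libraries stood apart from the other 4. The log2 change in TEV against vehicle was 1.61 (SE 0.10, edgeR adjusted p = 5.44e-05). The 4 GINS subunits act as 1 complex but differed in size of change: Gins1 1.69, Gins2 1.67, Gins3 1.25 and Gins4 0.60. Gins4 had 19.0 and 19.7 CPM in vehicle and 28.7 and 30.0 in TEV, while Gins2 went from 17.7 and 20.3 to 55.4 and 65.0. Mcm10, which helps to start unwinding, rose by 1.01.

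Polymerase alpha-primase lays the RNA-DNA primers, and 3 of its 4 genes rose. Prim1, the catalytic primase subunit, had 7.90 and 7.38 CPM in vehicle, 24.5 and 25.7 in TEV and 27.2 and 29.1 in TEV plus reserpine. The 3 groups did not overlap, and the step from vehicle to TEV was the larger one, at 1.72 (SE 0.11, edgeR adjusted p = 6.15e-05). Prim2, the other primase subunit, had 14.2 and 15.3 CPM in vehicle, 17.4 and 18.8 in TEV and 23.0 and 22.5 in TEV plus reserpine. Its change of 0.30 in TEV against vehicle missed the threshold (edgeR adjusted p = 0.0652). Pola1 and Pola2, the catalytic and regulatory polymerase subunits, rose by 1.12 and 0.94.

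Polymerases delta and epsilon copy most of the lagging and leading strand. Of their 5 genes 2 rose with vesicles, and their median of 0.37 was the lowest of the 11 role groups. Pole, the catalytic subunit of epsilon, had 29.9 and 32.2 CPM in vehicle, 51.0 and 61.8 in TEV and 94.7 and 93.8 in TEV plus reserpine. The 3 groups did not overlap and rose in 2 steps, 0.86 (SE 0.11, edgeR adjusted p = 0.00106) and 0.74 (SE 0.11, edgeR adjusted p = 0.00489). Pole2, its second subunit, rose by 0.73 in TEV against vehicle, a call lost without vehicle replicate 1 (0.62, edgeR adjusted p = 0.108) or without TEV replicate 2 (0.58, edgeR adjusted p = 0.0898). Of the 3 delta genes none was called in TEV against vehicle in the fit of all 6 libraries. Pold3, an accessory subunit, had 31.98 and 34.9 CPM in vehicle, 27.4 and 31.0 in TEV and 40.9 and 41.8 in TEV plus reserpine. TEV was the lowest group, though not called against vehicle (-0.19, edgeR adjusted p = 0.169), and TEV plus reserpine was the highest. Pold2 followed the same order, with 15.1 and 14.8 CPM, then 11.5 and 14.1, then 22.6 and 18.2. Pold1, the catalytic subunit, had 20.3 and 21.6 CPM in vehicle, 26.5 and 27.3 in TEV and 44.3 and 29.6 in TEV plus reserpine, where the 2 libraries differed widely. The change of Pold1 in TEV against vehicle was 0.37 (SE 0.19, edgeR adjusted p = 0.143). It was called when only the TEV and vehicle libraries were fitted (0.34, edgeR adjusted p = 0.0432).

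The clamp rose with most of its loader. Pcna, the sliding clamp, had 73.9 and 81.1 CPM in vehicle, 159 and 171 in TEV and 185 and 191 in TEV plus reserpine. The groups did not overlap, and the log2 change in TEV against vehicle was 1.09 (SE 0.08, edgeR adjusted p = 0.000124). Of the 5 subunits of replication factor C, which loads the clamp, Rfc5 (1.08), Rfc4 (0.65) and Rfc2 (0.62) rose. The Rfc4 call was lost without vehicle replicate 1 (0.50, edgeR adjusted p = 0.129) or TEV replicate 2 (0.47, edgeR adjusted p = 0.11). The Rfc2 call was lost without each library except vehicle replicate 1, with an adjusted p of 0.149 at the highest, without vehicle replicate 2. With library size alone Rfc4 (0.53, edgeR adjusted p = 0.0568) and Rfc2 (0.49, edgeR adjusted p = 0.0702) were not called. Neither was called in the 2 groups alone (0.62 and 0.59, edgeR adjusted p = 0.055 and 0.0613). Rfc1, the large subunit, was the least even: its vehicle libraries had 14.4 and 7.35 CPM, the TEV libraries 19.3 and 20.0 and the TEV plus reserpine libraries 23.0 and 13.9. Neither Rfc1 (0.85, SE 0.34, edgeR adjusted p = 0.0781) nor Rfc3 (0.37, edgeR adjusted p = 0.162) passed the test. Other settings did call Rfc1: DESeq2 (0.84, adjusted p = 0.0366), no filter on low counts (0.85, edgeR adjusted p = 0.0206) and a replicate block (0.94, edgeR adjusted p = 0.0279). The change of Rfc1 was 1.42 without vehicle replicate 1, and that of Rfc3 was 0.66 without vehicle replicate 2.

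Among genes of the lagging strand and of single-strand binding, 4 of 5 rose, with a median of 1.42. Lig1, the ligase that joins Okazaki fragments, had 19.2 and 15.0 CPM in vehicle, 46.3 and 53.6 in TEV and 69.9 and 64.4 in TEV plus reserpine. The 3 groups did not overlap, and the log2 change in TEV against vehicle was 1.55 (SE 0.14, edgeR adjusted p = 0.000254). Fen1, the flap nuclease, rose by 1.42, from 23.8 and 25.1 CPM to 62.2 and 68.7. The subunits of the trimer RPA, which coats single strands, differed: Rpa2 rose by 1.496 and Rpa1 by 0.55, while Rpa3 changed by 0.39 without passing the test (edgeR adjusted p = 0.0718). Rpa1 went from 135 and 114 CPM in vehicle to 172 and 192 in TEV.

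Of the 5 genes of deoxynucleotide supply 4 rose. Rrm2, the regulated subunit of ribonucleotide reductase, had 42.3 and 37.8 CPM in vehicle, 113 and 133 in TEV and 169 and 181 in TEV plus reserpine. The groups did not overlap, and the log2 change in TEV against vehicle was 1.62 (SE 0.11, edgeR adjusted p = 7.57e-05). Its partner Rrm1 rose by 1.13, and Tk1 (thymidine kinase) and Tyms (thymidylate synthase) by 1.26 and 1.15. Dut, the dUTPase that keeps uracil out of DNA, did not follow. It had 25.6 and 24.3 CPM in vehicle, 23.0 and 27.4 in TEV and 40.0 and 38.2 in TEV plus reserpine, so the first 2 groups overlapped (0.01, edgeR adjusted p = 0.932, and -0.11 when scaled by library size alone) and the third stood above both.

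The genes that copy chromatin and DNA methylation showed a similar split. Dnmt1, the maintenance methyltransferase, had 77.6 and 69.9 CPM in vehicle, 137 and 162 in TEV and 164 and 161 in TEV plus reserpine. Vehicle was low and the vesicle-treated groups overlapped. It rose by 1.02 (SE 0.11, edgeR adjusted p = 0.000386). Uhrf1, which brings Dnmt1 to hemimethylated sites, had 37.2 and 32.2 CPM in vehicle, 38.7 and 54.0 in TEV and 82.2 and 74.3 in TEV plus reserpine. The main step of Uhrf1 lay between the last 2 groups, and its change in TEV against vehicle missed the threshold (0.42, edgeR adjusted p = 0.0768). Without TEV replicate 1 this order turned, with Uhrf1 called in TEV against vehicle (0.66, edgeR adjusted p = 0.0117) and not in TEV plus reserpine against TEV (0.53, edgeR adjusted p = 0.055). The CAF-1 histone chaperone genes Chaf1a and Chaf1b rose by 1.19 and 0.90. The Chaf1b call was lost without TEV replicate 2 (0.72, edgeR adjusted p = 0.0516).

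All 5 genes of fork protection and the replication checkpoint rose. Clspn, the adaptor that helps ATR activate Chk1, had 14.0 and 11.7 CPM in vehicle, 25.9 and 34.7 in TEV and 45.5 and 47.5 in TEV plus reserpine. The 3 groups did not overlap, and the TEV libraries differed most between replicates. Its log2 change in TEV against vehicle was 1.24 (SE 0.17, edgeR adjusted p = 0.00116). Timeless and Tipin form 1 complex that travels with the fork, and rose by 1.03 and 0.59. Without vehicle replicate 1 (0.49, edgeR adjusted p = 0.0753) or TEV replicate 2 (0.45, edgeR adjusted p = 0.0567) Tipin was not called. Wdhd1, which ties polymerase alpha to the helicase, rose by 1.06, and Brca1, a repair and fork protection factor, by 1.45.

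Of the 4 E2F genes 3 rose. E2f7, an atypical E2F that represses S phase genes, had 10.5 and 10.8 CPM in vehicle, 37.6 and 34.2 in TEV and 28.1 and 32.3 in TEV plus reserpine. TEV was the highest group, and the log2 change against vehicle was 1.75 (SE 0.12, edgeR adjusted p = 7.24e-05). E2f8, the other atypical repressor, rose less, by 0.69, from 8.71 and 9.51 CPM to 12.7 and 16.5. E2f1, an activator, had 32.2 and 30.8 CPM in vehicle, 38.4 and 40.0 in TEV and 40.6 and 38.4 in TEV plus reserpine, a small change of 0.31 (SE 0.09, edgeR adjusted p = 0.0256) that turned to -0.07 when scaled to the endothelial markers. The calls of E2f1 and E2f8 were each lost without vehicle replicate 1 (adjusted p = 0.0886 and 0.0862 in edgeR), vehicle replicate 2 (0.147 and 0.0517) or TEV replicate 2 (0.0924 and 0.0799). The E2f1 call was also lost with library size alone (0.19, edgeR adjusted p = 0.13) and with a replicate block (0.32, edgeR adjusted p = 0.0503). E2f2, another activator, had few reads, with 2.42 and 3.62 CPM in vehicle, 2.50 and 6.28 in TEV and 3.80 and 2.93 in TEV plus reserpine, and all groups overlapped.

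The changes were also counted by E2F match in the promoter. Of the 19 with a match 14 rose with vesicles, with a median log2 change of 1.12. Of the 27 with a promoter and no match 23 rose, with a median of 1.06. The 9 genes without a promoter entry were Gmnn, Mcm4, Gins1, Gins2, Gins4, Prim2, Pole, Rfc2 and Tipin. Of these 9, 8 rose, with a median of 0.86. The difference between these groups was not tested.

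**Figure D3:**
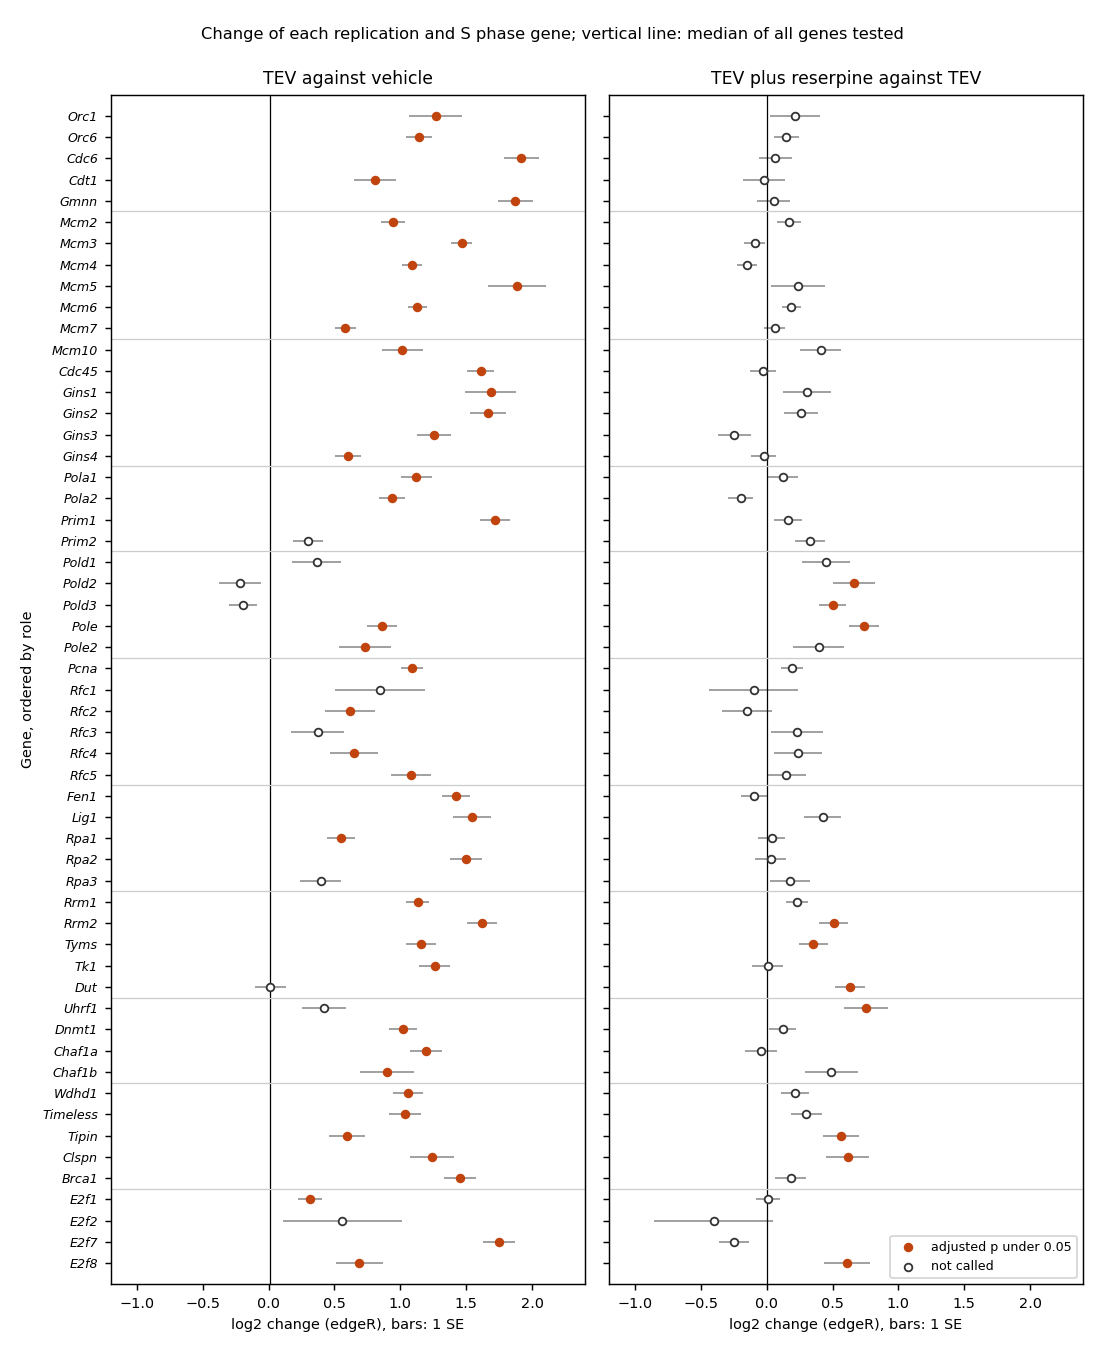
Log2 change of each of the 55 genes (edgeR, bars 1 SE) in TEV against vehicle (left) and in TEV plus reserpine against TEV (right), filled where the adjusted p was under 0.05, with a line at the median of all genes tested. On the left 45 genes are filled, all to the right of the line, and on the right 10.

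Fewer of these genes were called in TEV plus reserpine against TEV than in TEV against vehicle. Against TEV alone, 10 of the 55 rose (18.18%) and none fell, where 15.7% of all genes tested were called higher and 16% lower. This share is near that of all genes and is no result about the 55 as a set. Their median log2 change was 0.18, beside 0.00 for all genes tested, with 42 changes above 0 and 13 below. DESeq2 called 13 of the 55 higher, and 2694 of the 15035 genes tested. A gene without a call may still have changed. Both TEV plus reserpine libraries lay above both TEV libraries for 32 of the 55, against 35% of all genes tested, and below them for 6, against 35.8%. Fewer were called with some libraries left out: 2 without TEV replicate 1, 1 without TEV plus reserpine replicate 1 and 4 without TEV plus reserpine replicate 2. Over all genes tested the higher calls went from 2354 to 1049, 1297 and 1266 in the same fits. The changes of the 10 genes stayed above 0 with any 1 library left out, from 0.24 (Tyms) to 1.03 (Uhrf1). Pole was the one gene of the 10 called under all 15 other settings of normalization, filter, tool, depth and libraries that kept the TMM, RLE or library size scale.

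The 10 genes that rose were Pole, Pold2 and Pold3 among the polymerases, Rrm2, Tyms and Dut in deoxynucleotide supply, Uhrf1, the fork genes Tipin and Clspn, and E2f8. Uhrf1 had the largest change, 0.75 (SE 0.17, edgeR adjusted p = 0.0171), and Pole the smallest adjusted p. Dut rose by 0.63 (SE 0.12, edgeR adjusted p = 0.00931). Pold2 rose by 0.66 and Pold3 by 0.50. All 5 genes of polymerases delta and epsilon had both TEV plus reserpine libraries above both TEV libraries, against 35% of all genes tested. The same held for all 5 genes of fork protection and the replication checkpoint. The change of Rrm2 was 0.51 (SE 0.11, edgeR adjusted p = 0.0147), and that of Tyms 0.35 (edgeR adjusted p = 0.0488). Clspn and Tipin rose by 0.61 and 0.57, and E2f8 by 0.61.

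No gene of origin licensing, MCM2-7, helicase activation, polymerase alpha-primase, the clamp and its loader, or the Okazaki fragment group was called in this comparison by edgeR. Of these genes Mcm6, Mcm10, Prim2 and Lig1 were higher at an unadjusted p under 0.05, DESeq2 called Mcm6 and Lig1, and limma-voom called Lig1. The 6 MCM2-7 genes changed by -0.15 to 0.24. Mcm3 and Mcm4 had both TEV plus reserpine libraries below both TEV libraries, at -0.09 and -0.15 (edgeR adjusted p = 0.416 and 0.168). E2f7 was lower as well without passing the test (-0.25, edgeR adjusted p = 0.144). Whether the changes of called and uncalled genes differ from each other was not tested.

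The endothelial marker sum was nearly level in this comparison, at 10457 and 10312 CPM in TEV and 10257 and 10001 in TEV plus reserpine, a ratio of means of 0.975. Single markers were not: of the 12, 6 rose and 3 fell, and Kdr, the VEGF receptor, went from 65.3 and 105 CPM to 463 and 495. Fibroblast markers rose for 3 of 9 and fell for 1, and pericyte and smooth muscle markers rose for 2 of 9. The replication sum over the endothelial sum was 0.297 and 0.301 in the TEV plus reserpine libraries, above the 0.241 and 0.271 of TEV. Scaled to the geometric mean of these markers, which the large rises of Kdr and Cldn5 enter, 0 of the 55 genes rose and 17 fell, with a median of -0.27, beside -0.45 for all genes tested. The part of the fibroblast and mural markers in the 10 calls was not tested.

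**Figure D4:**
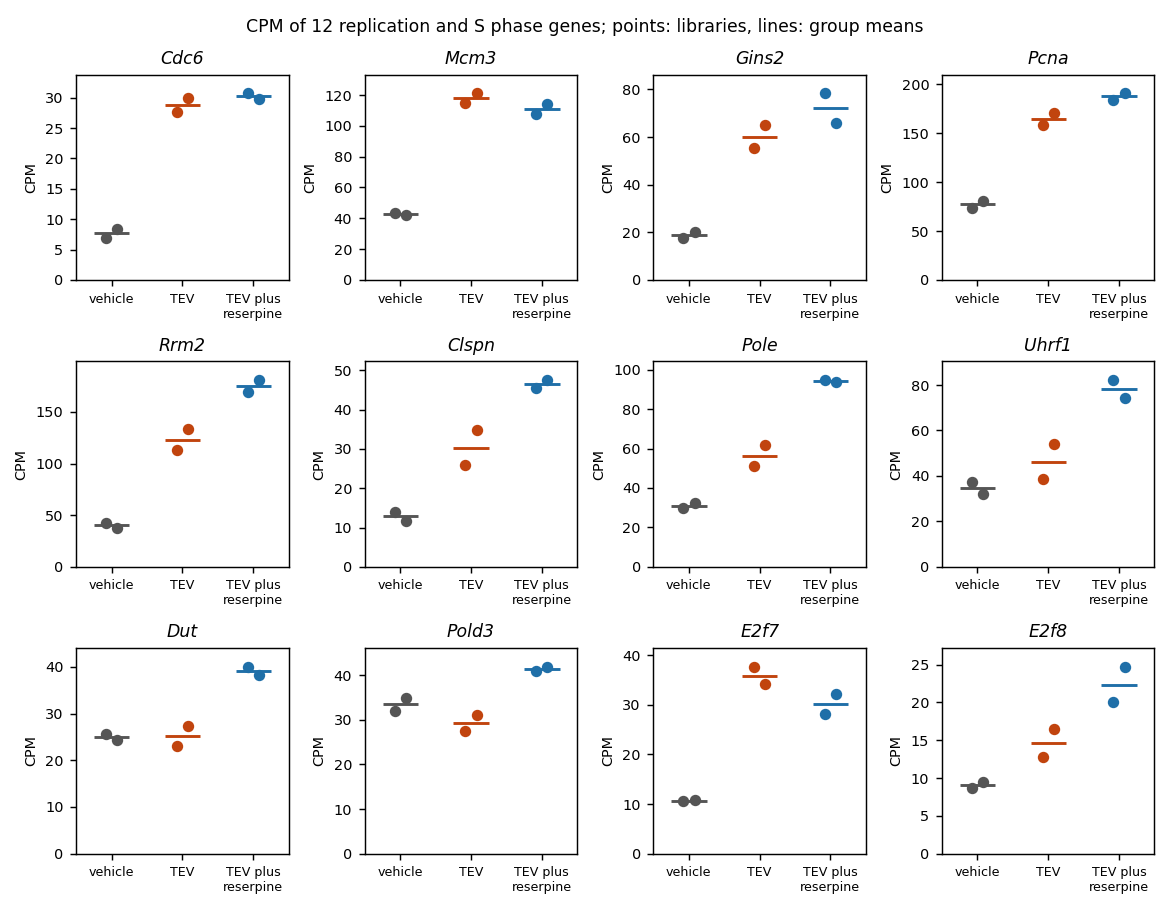
CPM of 12 of the genes in each library (points) with the group mean (line), for vehicle, TEV and TEV plus reserpine; each axis starts at 0. Cdc6, Mcm3 and Gins2 take their main step with the vesicles, Dut and Pold3 stay level or dip with vesicles and are highest with reserpine, and Rrm2, Pole and Clspn climb over all 3 groups.

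Cells given both agents were above vehicle for nearly the whole list. In TEV plus reserpine against vehicle 49 of the 55 rose and none fell, where 19.1% of all genes tested were called higher and 19.9% lower. The median log2 change was 1.27, beside -0.02 for all genes tested, and 37 genes were at least 2-fold higher. Both TEV plus reserpine libraries lay above both vehicle libraries for 53 of the 55, against 35.4% of all genes tested, with overlap for Rfc1 and E2f2. Scaled to the endothelial markers 32 rose and 3 fell, with a median of 0.44, beside -0.86 for all genes tested. Rrm2 and Mcm5 had the largest changes, both 2.13 (SE 0.11 and 0.22, edgeR adjusted p = 5.47e-05 and 0.000618), followed by Gins1 at 1.99, Cdc6 at 1.98 and Lig1 at 1.97. This comparison shares the vehicle libraries with that of TEV, and the TEV plus reserpine libraries with that of reserpine, so the 3 sets of calls are not independent.

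By its calls in the 3 comparisons at the main settings, each gene fell into 1 of 7 patterns. The largest, with 38 genes, was higher in both vesicle-treated groups than in vehicle with no call between those 2 groups, and held all of origin licensing, MCM2-7 and helicase activation. The 6 genes Pole, Rrm2, Tyms, Tipin, Clspn and E2f8 were called higher in all 3. Dut and Uhrf1 were called with reserpine against either group but not in TEV against vehicle. Pold2 and Pold3 were called in TEV plus reserpine against TEV alone (0.45 and 0.31 against vehicle, edgeR adjusted p = 0.0672 and 0.0575). Prim2, Pold1 and Rpa3 were called only in TEV plus reserpine against vehicle, at 0.63, 0.82 and 0.57. The Pold1 call was lost without vehicle replicate 1 (0.77, edgeR adjusted p = 0.0734) or vehicle replicate 2 (0.86, edgeR adjusted p = 0.0505). That of Rpa3 was lost without any of the 4 libraries compared, with adjusted p between 0.0662 and 0.126 in edgeR. Rfc2 was called only in TEV against vehicle, and Rfc1, Rfc3 and E2f2 in none. DESeq2 did call Rfc1 in TEV against vehicle and Rfc3 in TEV plus reserpine against vehicle.

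Levels were compared between genes per length, as CPM per kilobase of the transcript with the longest coding sequence. In vehicle Pcna was the highest at 51.1 ± 3.35 (SD, n = 2), then Rpa1 at 42.2 ± 4.97, with no overlap between their libraries, then Dut at 24.5 ± 0.885 and Mcm7 at 22.8 ± 0.824. Rrm2 went from rank 7 in vehicle (18.3 ± 1.44) to rank 3 in TEV (56.1 ± 6.55) and rank 2 in TEV plus reserpine (79.9 ± 3.65). Dut went from rank 3 to rank 14 and rank 6 (24.5, 24.7 and 38.3 CPM per kilobase). Mcm5 was the lowest of the 55 in vehicle at 0.374 ± 0.0242, while the other 5 subunits of its 6-part ring stood between 14.1 and 22.8. The transcript set behind the deposited counts is not stated in any source used here, so whether the Mcm5 counts cover all of its transcripts could not be checked, and this level and rank are uncertain.

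A further 48 replication genes, picked for their function, gave a mixed picture. With vesicles 27 rose and 3 fell, with a median log2 change of 0.62, where 25.1% of all genes tested were called higher and 24.6% lower. Exo1 (1.82), a nuclease, Esco2 (1.65), a cohesin acetyltransferase, and Asf1b (1.53), a histone chaperone, were among those that rose most. Rmi1 fell by 0.95, Pold4 by 0.85 and Atr, the checkpoint kinase, by 0.44, with edgeR adjusted p of 0.0176, 0.00864 and 0.0106. Rmi1 lost its call without vehicle replicate 2 or either TEV replicate, and Atr without either vehicle replicate or TEV replicate 2, with adjusted p between 0.0523 and 0.107 in edgeR. Chosen after their values were seen, Orc2, Orc3, Orc4 and Orc5, the other origin recognition subunits tested, were not called (0.25, -0.13, -0.08 and -0.31), whereas Orc1 and Orc6 rose. With reserpine 5 of the 48 rose (10.42%, below the 15.7% of all genes tested) and 1 fell, with a median of 0.18, which is no result about the list. Those that rose were 2810417H13Rik, the symbol used in the table for the PCNA-associated factor Pclaf (0.74), Shmt1 (0.66), Asf1b (0.62), Atr (0.43) and Top1, the topoisomerase ahead of the fork, and the one that fell was Orc4 (-0.38). The calls of 2810417H13Rik, Shmt1 and Asf1b were each lost without TEV replicate 1 or either TEV plus reserpine replicate (edgeR adjusted p between 0.0540 and 0.105), and that of Atr without either TEV replicate or TEV plus reserpine replicate 1 (0.0502 to 0.0822). The Orc4 call was lost without every library but TEV replicate 2 (edgeR adjusted p between 0.0578 and 0.158), with library size alone (0.0626), in the 2 groups alone (0.0517) and with a replicate block (0.0567).

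Among 18 regulators of S phase entry, 9 rose and 3 fell with vesicles, with a median of 0.27, where 25.1% of all genes tested were called higher and 24.6% lower. Ccne2, a cyclin E, rose by 1.36 and Cdk2, its kinase, by 1.00. Tfdp2, an E2F partner, had 54.3 and 38.1 CPM in vehicle, 121 and 69.1 in TEV and 29.0 and 31.3 in TEV plus reserpine. It was highest in TEV and lowest with reserpine, with changes of 1.04 and -1.65 (edgeR adjusted p = 0.0193 and 0.00755), and the first call was lost without vehicle replicate 2 (0.80, edgeR adjusted p = 0.0926) or TEV replicate 1 (0.60, edgeR adjusted p = 0.068). Myc, the growth regulator, had 138 and 145 CPM in vehicle, 64.7 and 103 in TEV and 196 and 187 in TEV plus reserpine. Here TEV was the lowest group, with changes of -0.76 and 1.19 (edgeR adjusted p = 0.0177 and 0.00688), and the first was not called without vehicle replicate 1 (-0.79, edgeR adjusted p = 0.0512) or vehicle replicate 2 (-0.72, edgeR adjusted p = 0.065). E2f5 and Rb1, the retinoblastoma repressor, fell by 0.82 and 0.78 with vesicles. With reserpine against TEV, 7 rose and 2 fell, where 15.7% of all genes tested were called higher and 16% lower. Cdkn1b, the inhibitor p27, fell by 0.58, and Ccna2, cyclin A2, rose from 30.5 and 41.8 CPM to 75.0 and 77.5.

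Genes of mitosis and cytokinesis were higher with vesicles, and many were higher again with reserpine. Of 36 such genes 35 rose with vesicles and none fell, where 25.1% of all genes tested were called higher and 24.6% lower. Their median was 1.19, and Nuf2, Kif20a and Nusap1 rose by 1.70, 1.64 and 1.63. With reserpine against TEV 20 of the 36 rose (55.56%, where 15.7% of all genes tested were called higher), with a median of 0.60. How many of these 20 calls hold with a library left out, or scaled to the endothelial markers, was not counted. Both TEV plus reserpine libraries lay above both TEV libraries for all 36, against 35% of all genes tested. Ccnb1, the mitotic cyclin, had 18.6 and 13.4 CPM in vehicle, 25.9 and 36.7 in TEV and 70.0 and 69.2 in TEV plus reserpine, and rose by 1.15 in the last step (SE 0.20, edgeR adjusted p = 0.00831). Cenpf and Nusap1 rose by 1.15 and 1.07 in that step. The sum of the 55 replication genes over the sum of these 36 was 1.62 and 1.86 in vehicle, 1.59 and 1.51 in TEV and 1.24 and 1.17 in TEV plus reserpine. On this ratio the TEV plus reserpine libraries were the lowest and stood apart. Vehicle and TEV did not overlap but nearly met, at 1.62 and 1.59, closer than the 2 vehicle libraries to each other. With 2 libraries against 2, an exact permutation test cannot reach a p of 0.05, and none was run. Whether the 2 lists differ in their response to reserpine was not tested.

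**Figure D5:**
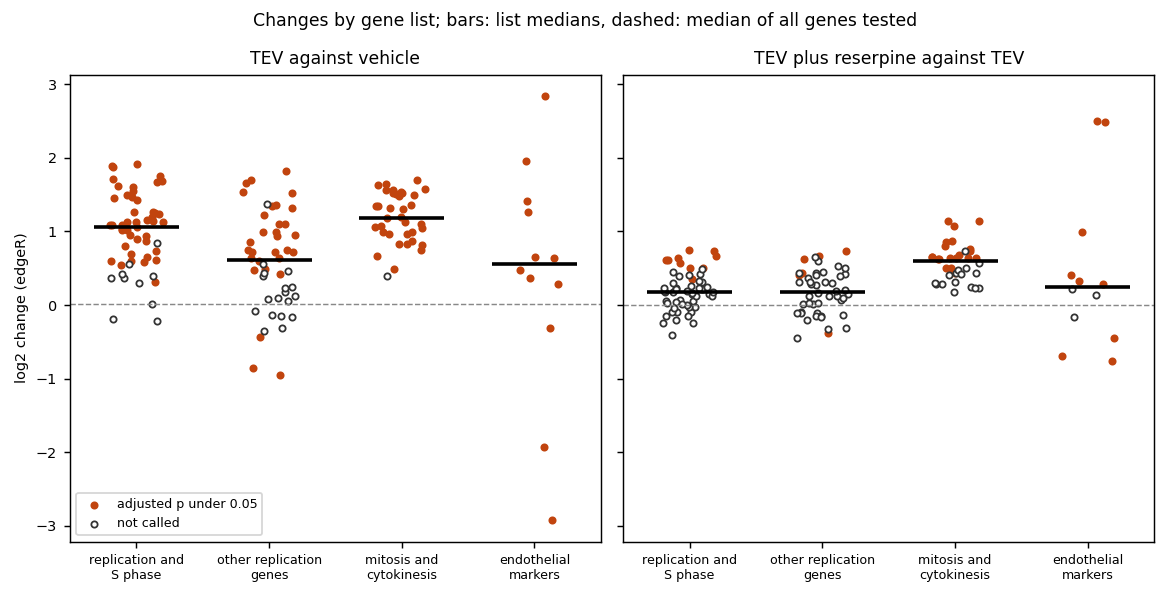
Log2 change (edgeR) of each gene in 4 lists, in TEV against vehicle (left) and TEV plus reserpine against TEV (right), filled where the adjusted p was under 0.05; bars are list medians and the dashed line is the median of all genes tested. On the right the median of the mitosis genes is 0.60 and that of the 55 replication and S phase genes 0.18.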

How the data were processed

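PolyA RNA was sequenced as 75 bp single-end reads, per the labels' protocols. Per the submitters' processing notes, kallisto 0.45.0 was used, with R 4.0.0, edgeR and limma, and the authors deposited estimated counts per gene symbol, 61.2% of them not whole. The notes name the human build GRCh38 while the symbols are mouse, and no source used here gives the strand setting, so reads of overlapping or antisense genes cannot be separated. A second, filtered table with 13098 genes repeats those values and was not used in tests.

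Estimated counts were rounded, filtered (filterByExpr) to 15035 genes and scaled by TMM (factors 0.941 to 1.04). edgeR 4.0.16 in R 4.3.3 fitted all 6 libraries in 1 model with 3 residual degrees of freedom, with the Benjamini-Hochberg adjustment over all genes tested. The 3 contrasts were tested with glmQLFTest at an adjusted p of 0.05, and the scripts were tested on simulated data. CPM are estimated counts over TMM-scaled totals. Replicates differed by more than counting noise (chi-square per gene 19.5 to 43.3). Alternatives were other normalizations, filters and tools (DESeq2 1.42.0, limma-voom 3.58.1), thinning, 2 groups alone, a replicate block, each library left out, and, added after the data were seen, scaling to endothelial markers.

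Groups follow the sample labels, since the wording of the series text could mean that vehicle cells also had reserpine. Replicate numbers are those of the titles, and the deposited counts number the vesicle-treated libraries differently. The 55 genes, their role groups and the other lists were chosen with earlier results of these data known. All 55 are named; of other lists, up to 4 called genes at each end of a comparison are named, with exceptions said in the text. Transcript lengths came from GENCODE M21.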

Additional observations from a re-analysis of the deposited data

How the results depend on the processing

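In TEV against vehicle the count of genes that rose stayed between 42 and 47 under other normalizations, filters, tools, depth and sample sets, and between 38 and 46 with 1 library left out. The median change was 0.93 with library size alone and 0.97 to 1.15 with 1 library left out. Of the 45 genes 38 were called in all 15 settings, as were 44 of 49 in TEV plus reserpine against vehicle. In TEV plus reserpine against TEV 1 of 10 was, the count ran from 1 to 11 with 1 library left out, where fewer samples are fitted by construction, and the median was 0.26 with library size alone and 0.11 to 0.27 with 1 library left out. With library size alone the median of all genes moved to -0.11 for vesicles and 0.08 for reserpine, and calls split 2968 higher to 4497 lower (3773 to 3703 with TMM) and 2857 to 1954 (2354 to 2403). Over all genes, leaving out TEV replicate 1 left 1049 higher and 1075 lower for reserpine, TEV plus reserpine replicate 1 left 1297 and 1284 and replicate 2 left 1266 and 1294. Against vehicle, TEV plus reserpine gave 1800 and 1772 without vehicle replicate 1 and 2074 and 1976 without TEV plus reserpine replicate 1, beside 2879 and 2994.

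Scaling to the 12 endothelial markers, added after the data were seen, moved the median of all genes to -0.37, -0.45 and -0.86 in the 3 comparisons, and split the calls 1514 higher to 5936 lower, 858 to 6270 and 651 to 10447. On that scale 35 of the 55 genes rose and 3 fell with vesicles (median 0.67), 0 rose (1 at an unadjusted p under 0.05 in edgeR) and 17 fell with reserpine (median -0.27), and 32 rose and 3 fell with both against vehicle (median 0.44). Signs then turned for 5, 32 and 16 of the 55 genes in the 3 comparisons, 1, 1 and 10 of them called before. Among the changes given in the text as log2 values these were, with vesicles, Prim2 (-0.089), Pold1 (-0.018), Rfc3 (-0.010), Dut (-0.38), E2f1 (-0.068) and Orc2 (-0.13), with reserpine Tyms (-0.089) and Atr (-0.023), and with both Prim2 (-0.21), Pold1 (-0.022), Pold2 (-0.39), Pold3 (-0.53), Rpa3 (-0.26) and Dut (-0.19). The uncalled change of Dut with vesicles was -0.11 with library size alone, -0.0013 with RLE factors, -0.00043 with DESeq2, -0.0025 after thinning, -0.011 in the 2 groups alone, and -0.12 to 0.15 with 1 library left out. Leaving out 1 library moved E2f2 between -0.27 and 1.08 and Orc4 between -0.15 and 0.0095. The cause was not tested.

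With a replicate block 45, 9 and 48 genes rose in the 3 comparisons. By the title numbers, same-numbered libraries did not deviate together (correlations of 0.02, 0.02 and -0.04). Low correlations show no shared shift and cannot exclude that the samples were paired. The deposited counts also number the vesicle-treated libraries differently from the titles, so other pairs are possible.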
